A study of Mus musculus with 8 samples.

Results

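The fibroblast growth factor (FGF) ligands and receptors described here were 8 genes, the ligands Fgf1, Fgf2, Fgf7 and Fgf10 and the receptors Fgfr1, Fgfr2, Fgfr3 and Fgfr4. They were chosen by gene symbol, as the identifiers that the GENCODE M21 annotation gives those names, and all 8 were found among the 54532 genes of the count table. RNA came from frozen whole prostates of male NOD/ShiLtJ mice, a strain prone to autoimmune disease, and poly(A)-selected libraries were sequenced in bulk as paired reads of 150 nt. The control group of 4 mice (control 1, 3, 65 and 69) received the PBS vehicle, and the treated group of 4 mice (etanercept 17, 19, 50 and 52) received etanercept, which is a soluble form of the TNF receptor and takes up TNF, at 4 mg/kg by intraperitoneal injection. Injections were given 2 times per week for 5 weeks from an age of 25 weeks, and the prostates were taken at 30 weeks. Assignment was random with stratified blocks, diabetic and non-diabetic mice were pooled, and the diabetic status of each mouse was not used here.

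FGF ligands are secreted proteins that bind receptor tyrosine kinases on the cell surface together with heparan sulfate, and the bound receptor signals through the adaptor FRS2 to the RAS, RAF and ERK kinases. In the prostate, FGF7 and FGF10 are known as products of the stroma that act on the epithelium through the IIIb form of FGFR2, while FGF2 acts mainly through IIIc forms, and FGF1 binds the receptors of this family in either form. The IIIb and IIIc forms differ by a choice between mutually exclusive exons for the third immunoglobulin-like domain, which the splicing proteins ESRP1 and ESRP2 direct toward IIIb in epithelia.

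Libraries held 13760669 to 25178942 counts per mouse, so that 3 counts, taken as the smallest detectable amount, were between 1.19e-05% and 2.18e-05% of the total. Levels are given as CPM (counts scaled by TMM to a common library size) or, where genes are set beside each other, as FPKM (CPM divided by exon length in kb). Some libraries stood apart in marker genes of other tissues. The summed level of 7 seminal vesicle genes was 87705 CPM in etanercept 17 and 3560.2 CPM in control 69, against 0 to 601 CPM in the other mice, with Svs2 holding 78.8% of the sum and Svs3a and Svs3b below 1 CPM in all mice. Control 3 had the highest sums of the fibroblast, leukocyte, adipocyte, endothelial and skeletal muscle markers, for example 328 CPM for 7 leukocyte genes against 70.9 to 134 CPM elsewhere. The results for the FGF genes are therefore given with and without etanercept 17 and control 69, and the part of tissue composition in them was not tested.

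Both sides of the tissue that the ligands and receptors are named for were present in each library. The 6 smooth muscle markers summed to 3344, 6974, 6964 and 6125 CPM in control 1, 3, 65 and 69 and to 11346, 6412, 11455 and 13743 CPM in etanercept 17, 19, 50 and 52, led by Acta2 with 32.5% of the sum. Etanercept 17, 50 and 52 were above every control mouse, and etanercept 19 was within the control range. The 6 fibroblast markers summed to 397 to 1038 CPM, led by Dcn with 56.2%, and the groups overlapped. The 6 luminal epithelial markers summed to 1777 to 2963 CPM, led by Krt18 with 30.7%, and the 4 basal epithelial markers to 119 to 354 CPM, led by Krt15 with 40.0%. None of these markers was at 0 in all mice. The secretory genes of the prostate varied most among the epithelial lists, from 12860 CPM in control 1 and 15440 CPM in etanercept 17 to 245908 CPM in control 69. Sbp held 84.1% of the sum over all mice, but Pbsn was above Sbp in the mice with the low sums. Pbsn and Sbp were at 9156 and 1545 CPM in control 1 and at 7206 and 1615 CPM in etanercept 17. Since whole tissue was sequenced, fewer cells of a type and less RNA per cell cannot be told apart, and the cells that made each FGF transcript were not resolved.

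Fgf1 was the most abundant of the 8 genes in every mouse on the FPKM scale, with a mean ± SD (n = 4) of 14.7 ± 4.68 FPKM in the control group and 18.7 ± 4.47 FPKM in the etanercept-treated group. The order of the mean FPKM levels over all mice was Fgf1, Fgfr2, Fgf7, Fgfr1, Fgf2, Fgf10, Fgfr3 and Fgfr4. Among neighbours in this order, the FPKM ranges were apart between Fgf1 and Fgfr2 and between Fgfr3 and Fgfr4, and they overlapped in between. Neither group alone had this order, since the means fell from Fgfr2 (4.97 FPKM) over Fgfr1 (4.18) to Fgf7 (3.34) in the control mice and from Fgf7 (6.41) over Fgfr2 (5.47) to Fgfr1 (3.68) in the treated mice. Fgfr2 was above Fgf7 in 4 of 8 mice, namely control 1, 3 and 65 and etanercept 17, Fgf7 was above Fgfr1 in 5 of 8, namely control 69 and each treated mouse, and Fgf2 was above Fgf10 in 3 of 8. Fgfr1 was above Fgf2 in 7 of 8 mice and Fgf10 above Fgfr3 in 7 of 8 mice. Ranked by mean FPKM among the 15472 genes tested, Fgf1 was at percentile 83.0, Fgfr2 at 58.8, Fgf7 at 57.0, Fgfr1 at 51.8, Fgf2 at 38.5, Fgf10 at 37.5 and Fgfr3 at 17.8. Fgf1 held between 52.8% and 76.4% of the summed FPKM of the 4 ligands. Fgfr2 held between 42.9% and 61.9% of the summed FPKM of the 4 receptors, and Fgfr1 between 31.6% and 48.9%.

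**Figure D1:**
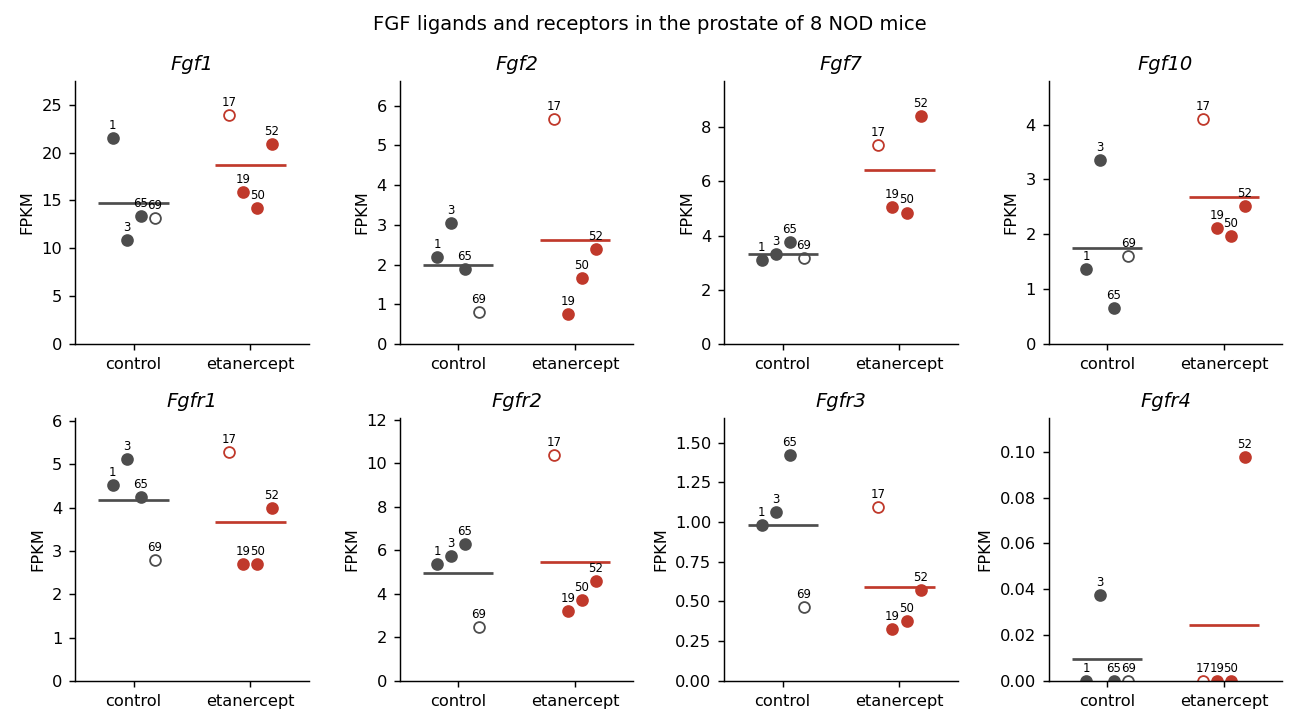
Level in FPKM of each FGF ligand and receptor in the 4 control and the 4 etanercept-treated mice, with the animal number at each point, the group mean as a line, and open circles for control 69 and etanercept 17, the libraries with the most seminal vesicle counts. Fgf7 is the gene whose etanercept-treated mice all lie above the control mice, while Fgf1, Fgf2, Fgf10, Fgfr1 and Fgfr2 are highest in etanercept 17.

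The comparison of etanercept-treated with control mice asked which prostate transcripts differ after etanercept. How far TNF was blocked in these prostates was not measured here, and the paper reported antibodies against etanercept in treated NOD mice at the end of treatment. Across all genes, edgeR called 0 of 15472 at an adjusted p of at most 0.05 (0%), and the smallest adjusted p was 0.739. At the unadjusted threshold of 0.05, edgeR gave 463 higher genes (2.99%) and 561 lower genes (3.63%), and DESeq2 called 21 of 18664 genes at its adjusted threshold (0.113%). Of the 8 FGF ligand and receptor genes, 7 passed the filter on low counts, and 0 of these were called after adjustment by edgeR or DESeq2. At the unadjusted threshold 1 of the 7, Fgf7, was higher and 0 were lower. Fgf7 was also the 1 gene of the 7 whose groups did not overlap, with all treated mice above all control mice, as in 373 of all tested genes (2.41%), and 0 of the 7 lay with all treated mice below, as in 2.53% of all tested genes. With so few members, 1 of 7 cannot be set apart from these background shares.

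Fgf7 (ENSMUSG00000027208, chr2:126034658-126091185, GRCm38, plus strand) encodes keratinocyte growth factor, a ligand for the IIIb form of FGFR2. Its level in control 1, 3, 65 and 69 was 3.10, 3.32, 3.77 and 3.17 FPKM, and in etanercept 17, 19, 50 and 52 it was 7.34, 5.05, 4.85 and 8.39 FPKM. The control mice lay close together, and each treated mouse was above the highest control mouse, with etanercept 17 and 52 farthest above. The group means were 3.34 ± 0.3001 and 6.41 ± 1.74 FPKM (SD, n = 4), and the log2 fold change was 0.94 (SE 0.25, 95% confidence interval 0.39 to 1.49, edgeR adjusted p 0.739). The unadjusted p of Fgf7 was 0.00364 in edgeR, its adjusted p in DESeq2 was 0.202, and the two-sided exact permutation test gave 0.0286, the smallest p that 4 against 4 mice allow. Leaving out 1 mouse at a time gave log2 fold changes of Fgf7 between 0.77, without etanercept 52, and 1.05, without etanercept 50. Without control 69 and etanercept 17 together, the log2 fold change of Fgf7 was 0.84, with an edgeR adjusted p of 0.222.

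Fgf7 had a positive r with the smooth muscle markers, which did not pass after adjustment. Over the 8 mice, Fgf7 and the mean level of the smooth muscle markers had r = 0.801 (exact permutation p 0.0129, adjusted 0.180 over 105 relations, rho 0.810, exact p 0.0218). On deviations from the group means r was 0.504 (exact permutation p within groups 0.141, adjusted 0.691). Without the 2 mice farthest from the median it was 0.750 (exact permutation p 0.117, adjusted 0.825). Of the 6 smooth muscle markers, 4 were higher at the unadjusted edgeR threshold, as were 2.99% of all tested genes, 0 were lower, and the median log2 fold change was 0.76. Acta2, among these 4, was not called without control 69 and etanercept 17 (unadjusted edgeR p 0.123), nor in every fit with 1 mouse left out (up to 0.107). Set against the 6 smooth muscle markers, Fgf7 was 3.01, 1.55, 1.76 and 1.68 CPM per 1000 summed marker CPM in control 1, 3, 65 and 69, and 2.10, 2.56, 1.375 and 1.98 in etanercept 17, 19, 50 and 52. On that scale control 1 was highest and stood apart, at 3.01 against 1.55 to 1.76 in the other control mice. Etanercept 17, 19 and 52 were above those other control mice, etanercept 50 was lowest, and the groups overlapped. The log2 difference of Fgf7 on that scale, with control 1 included, was 0.023 (exact permutation p 0.914, n = 4 per group). Per 1000 summed CPM of the fibroblast markers the log2 difference of Fgf7 was 0.60 (exact permutation p 0.171), and the groups overlapped as well. These scales were chosen after the data were seen, and whether the smooth muscle content of the samples accounts for the higher Fgf7 was not tested.

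**Figure D2:**
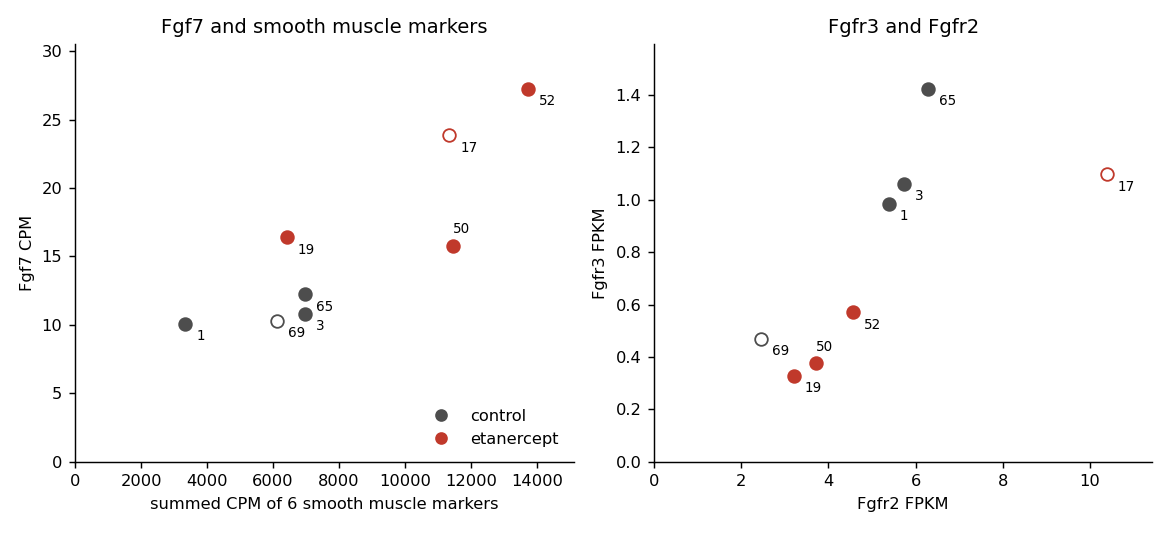
Left, Fgf7 in CPM against the summed CPM of 6 smooth muscle markers in each mouse. Right, Fgfr3 against Fgfr2, both in FPKM, with control mice in grey, etanercept-treated mice in red, animal numbers at the points and open circles for control 69 and etanercept 17. The ratio of Fgfr3 to Fgfr2 is between 0.183 and 0.227 in the control mice and between 0.101 and 0.125 in the treated mice.

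Fgf10 (ENSMUSG00000021732, chr13:118669791-118792115, plus strand) encodes another ligand of the IIIb form, known for branching of the prostate buds. Its level was 1.37, 3.36, 0.657 and 1.61 FPKM in control 1, 3, 65 and 69 and 4.11, 2.11, 1.97 and 2.51 FPKM in etanercept 17, 19, 50 and 52. Etanercept 17 and control 3 were high, control 65 was low, and the groups overlapped through control 3 alone. The log2 fold change of Fgf10 was 0.61 (SE 0.48, edgeR adjusted p 0.868, exact permutation p 0.229). It ranged from 0.32, without control 65, to 1.13, without control 3, and was 0.29 without control 69 and etanercept 17. Per summed CPM of the smooth muscle markers, the log2 difference of Fgf10 was -0.096 (exact permutation p 0.914).

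Fgf1 (ENSMUSG00000036585, chr18:38838673-38929472, minus strand) encodes acidic FGF, the ligand with the widest choice of receptors. Its level was 21.6, 10.9, 13.4 and 13.2 FPKM in control 1, 3, 65 and 69 and 23.9, 15.9, 14.2 and 20.9 FPKM in etanercept 17, 19, 50 and 52. Control 1 was among the high values, and without it each treated mouse was above the remaining control mice. The log2 fold change of Fgf1 was 0.34 (SE 0.25, edgeR adjusted p 0.853), between 0.21 without etanercept 17 and 0.57 without control 1, and 0.15 without control 69 and etanercept 17. Per summed CPM of the smooth muscle markers, the log2 difference of Fgf1 was -0.52 (exact permutation p 0.429), opposite in sign.

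Fgf2 (ENSMUSG00000037225, chr3:37348346-37410108, plus strand) encodes basic FGF, a mitogen of fibroblasts. Its level was 2.19, 3.05, 1.89 and 0.809 FPKM in control 1, 3, 65 and 69 and 5.67, 0.7635, 1.66 and 2.41 FPKM in etanercept 17, 19, 50 and 52. Etanercept 17 was far above the rest, etanercept 19 and control 69 were low, and the groups overlapped. The log2 fold change of Fgf2 was 0.40 (SE 0.58, edgeR adjusted p 0.954), and its sign depended on etanercept 17, since it was -0.30 without that mouse. Without control 69 and etanercept 17 it was -0.56 (edgeR adjusted p 0.548). The exons of Fgf2 share 640 bases with those of Nudt6 on the opposite strand, 9.44% of the Fgf2 exon length, and Nudt6 had 328 counts over all mice against 2182 for Fgf2. A count that does not use strand cannot assign reads from the shared bases.

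Fgfr1 (ENSMUSG00000031565, chr8:25513654-25575718, plus strand) encodes a receptor found in many mesenchymal cells. Its level was 4.52, 5.12, 4.26 and 2.80 FPKM in control 1, 3, 65 and 69 and 5.30, 2.71, 2.71 and 4.00 FPKM in etanercept 17, 19, 50 and 52. Control 69, etanercept 19 and etanercept 50 were low and the groups overlapped. The log2 fold change of Fgfr1 was -0.18 (SE 0.27, edgeR adjusted p 0.956), and -0.56 without control 69 and etanercept 17 (edgeR adjusted p 0.252).

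Fgfr2 (ENSMUSG00000030849, chr7:130162451-133123350, minus strand) encodes the receptor whose IIIb form binds FGF7 and FGF10. Its level was 5.39, 5.74, 6.28 and 2.46 FPKM in control 1, 3, 65 and 69 and 10.4, 3.205, 3.72 and 4.57 FPKM in etanercept 17, 19, 50 and 52. Etanercept 17 was highest and control 69 lowest, and with both set aside each remaining treated mouse was below each remaining control mouse. With all mice the log2 fold change of Fgfr2 was 0.14 (SE 0.41, edgeR adjusted p 0.990). Without etanercept 17 it was -0.37, without control 69 it was -0.08, and without both it was -0.60 (edgeR adjusted p 0.197). The annotated span of Fgfr2 is 2960900 bases long because 314 exon bases, 3.04% of the exon length used for its FPKM, lie beyond a gap of 2815493 bases, and these are shared with Ctbp2 on the same strand.

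Fgfr3 (ENSMUSG00000054252, chr5:33721674-33737068, plus strand) encodes a receptor that restrains growth in cartilage and is expressed in several epithelia. Its level was 0.983, 1.06, 1.42 and 0.468 FPKM in control 1, 3, 65 and 69 and 1.097, 0.328, 0.375 and 0.570 FPKM in etanercept 17, 19, 50 and 52. Etanercept 19, 50 and 52 and control 69 were low, and the groups overlapped through etanercept 17 and control 69. The log2 fold change of Fgfr3 was -0.73 (SE 0.51, edgeR adjusted p 0.846, exact permutation p 0.200). It lay between -1.21, without etanercept 17, and -0.52, without control 65, and was -1.44 without control 69 and etanercept 17 (edgeR adjusted p 0.178). In that smaller set of 6 mice, 1275 of 15558 genes (8.2%) were higher and 1292 (8.3%) lower at the unadjusted edgeR threshold, DESeq2 was not run, and 0 genes passed adjustment. Fgf7 was then among the higher genes, and Fgfr1, Fgfr2 and Fgfr3 were among the lower genes. For each of these receptors, etanercept 17 was the highest treated mouse and control 69 the lowest control mouse. Leaving out both therefore moves the receptor values down by itself, and the lower calls are no separate support. The set of 6 mice was chosen after the data were seen. The exons of Fgfr3 share 998 bases, 13.9% of its exon length, with G630022F23Rik on the opposite strand, which had 0 counts over all mice.

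Fgfr4 (ENSMUSG00000005320, chr13:55152640-55168759, plus strand) encodes a receptor best known in liver. It had 2 counts in control 3, 5 counts in etanercept 52 and 0 in the other 6 mice, so it did not pass the filter on low counts and no fold is given. A count of 0 allows a level of up to 3 counts, 1.19e-05% to 2.18e-05% of the total in those mice.

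**Figure D3:**
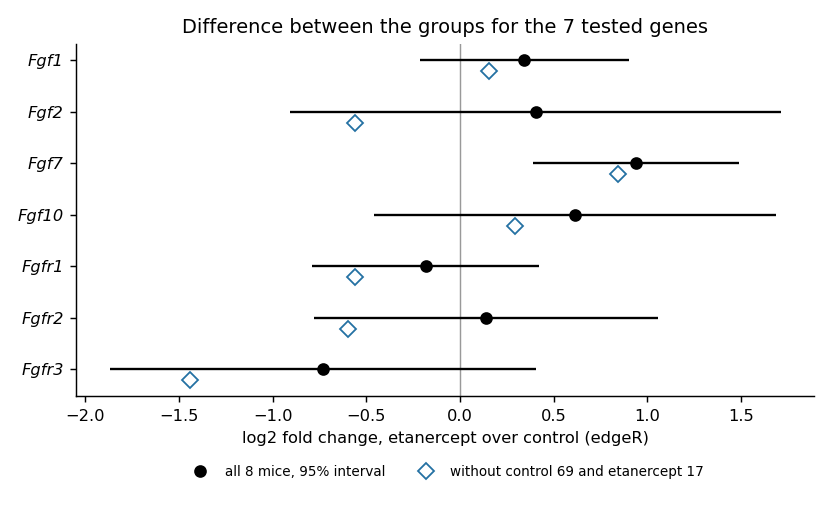
Log2 fold change of the 7 tested FGF genes, etanercept-treated over control, from edgeR for all 8 mice (filled circles, with 95% confidence intervals as lines) and without control 69 and etanercept 17 (open diamonds, no interval drawn). The interval of Fgf7 lies above 0, from 0.39 to 1.49, and the values of Fgf2 and Fgfr2 change sign between the sets of mice.

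The Fgfr3 share among the receptors did not overlap between the groups, while the single receptor levels did. How often such a share would not overlap for other genes was not counted. The groups overlapped in the shares of Fgfr1 and Fgfr2 and in the ratios of Fgfr3 to Fgfr1 and of Fgfr2 to Fgfr1. Fgfr3 made up 9.03%, 8.86%, 11.9% and 8.18% of the summed receptor FPKM in control 1, 3, 65 and 69 and 6.53%, 5.26%, 5.52% and 6.17% in etanercept 17, 19, 50 and 52. Each treated mouse was below each control mouse, etanercept 17 and control 69 included. Fgfr3 had few counts, with 44, 45 and 59 in etanercept 19, 50 and 52 and 58 in control 69. Because Fgfr2 held 42.9% to 61.9% of the summed receptor FPKM, the share and the ratio of Fgfr3 to Fgfr2 are largely the same comparison. The ratio of Fgfr3 to Fgfr2 FPKM was 0.183, 0.185, 0.227 and 0.191 in control 1, 3, 65 and 69 and 0.1055, 0.102, 0.101 and 0.125 in etanercept 17, 19, 50 and 52. The gap between the groups was wider than the spread within them, with means of 0.196 ± 0.0207 and 0.108 ± 0.011 (SD, n = 4). The 4 basal epithelial markers, led by Krt15, summed to 354, 294, 258 and 163 CPM in control 1, 3, 65 and 69 and to 196, 152, 119 and 219.5 CPM in etanercept 17, 19, 50 and 52, and none was at 0 in all mice. Of these 4 markers, 2 were lower and 0 higher at the unadjusted edgeR threshold, against 3.63% lower and 2.99% higher of all tested genes, with a median log2 fold change of -0.62. Krt15, among these 2, was not called in every fit with 1 mouse left out (unadjusted edgeR p up to 0.0789) or in every other setting (up to 0.0704). Other lists were lower as well, with negative log2 fold changes for 7 of 7 leukocyte, 5 of 5 endothelial and 5 of 6 luminal markers. All 6 smooth muscle markers went the other way. The part of the basal or other markers in the lower Fgfr3 share was not tested. The ratio of Fgfr3 to Fgfr2 was picked after the data were seen and has no test. Among the 21 ratios between pairs of tested members, 4 did not overlap between the groups. They were Fgfr3 to Fgfr2, Fgfr3 to Fgf10 and Fgfr1 to Fgf7, which were lower in each treated mouse, and Fgf7 to Fgf1, which was higher. Of 15471 other genes, the ratio to Fgfr2 lay lower in each treated than in each control mouse for 123 (0.795%) and higher for 36 (0.233%). Over all 119683656 pairs of tested genes, the ratio did not overlap between the groups in 3.96%. For ratios to a single ligand this was 4.47% with Fgf1, 3.15% with Fgf10 and 35.6% with Fgf7, whose own level did not overlap, so that the ratios with Fgf7 add little to its level. The ratio of Fgfr1 to Fgf7 FPKM was 1.46, 1.54, 1.13 and 0.885 in the control mice and 0.722, 0.537, 0.558 and 0.477 in the treated mice, in the same order of animals. The Fgfr1 level thus exceeded the Fgf7 level in control 1, 3 and 65, and was below it in control 69 and in each treated mouse.

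Several members varied together among mice within the groups. Between the groups their log2 fold changes differed in sign, at 0.40 for Fgf2 and 0.14 for Fgfr2 against -0.18 for Fgfr1 and -0.73 for Fgfr3. Fgf2 and Fgfr2 had r = 0.923 over the 8 mice (exact permutation p 0.00174, adjusted 0.0677; rho 0.810, exact p 0.0218), and r was 0.924 on deviations from the group means and 0.855 without the 2 mice farthest from the median. Fgf2 and Fgfr1 had r = 0.874 (exact permutation p 0.00159, adjusted 0.0677; rho 0.857, exact p 0.0107), with 0.946 within groups and 0.812 without those 2 mice. Fgfr1 and Fgfr2 had r = 0.883 (exact permutation p 0.00194, adjusted 0.0677; rho 0.833, exact p 0.0154), with 0.933 within groups and 0.914 without the 2 farthest mice. The mice high or low in 1 of these genes were thus high or low in the others, with etanercept 17 at the top. Fgfr2 and Fgfr3 had r = 0.806 (exact permutation p 0.0137, adjusted 0.180; rho 0.905, exact p 0.00456), with 0.981 within groups and 0.983 without the 2 farthest mice. Fgfr1 and Fgfr3 had r = 0.889 (exact permutation p 0.00605, adjusted 0.156; rho 0.833, exact p 0.0154), with 0.913 within groups and 0.762 without the 2 farthest mice. Fgf7 had low correlations with the receptors over all mice, while those on deviations from the group means were positive. Its r was 0.0844 with Fgfr1 (exact permutation p 0.827, adjusted 0.917; rho -0.0952, exact p 0.840), with 0.673 within groups and -0.634 without the 2 farthest mice. With Fgfr2 it was 0.313 (exact permutation p 0.453, adjusted 0.870; rho 0.143, exact p 0.752), with 0.545 within groups and -0.265 without the 2 farthest mice. With Fgfr3 it was -0.188 (exact permutation p 0.627, adjusted 0.904; rho -0.0952, exact p 0.840), with 0.646 within groups and -0.623 without the 2 farthest mice. Of the 105 relations, 21 between members and 84 between a member and a marker list, 12 reached an unadjusted exact p of 0.05 or less and 0 passed after adjustment. The mice share 1 tissue source and differ in composition, and no sequencing batch is given in the labels.

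Over the 8 mice, each of the 7 tested members had a negative r with the luminal epithelial markers, and each of the 3 tested receptors a positive r with the basal epithelial markers. Without control 69 and etanercept 17, the mice farthest from the median in the luminal markers, r with these was 0.121 for Fgfr3, -0.0979 for Fgf1, -0.332 for Fgfr1 and -0.343 for Fgf7, so that the common sign rested in part on those mice. Fgf2 had r = -0.855 with the luminal epithelial markers (exact permutation p 0.00744, adjusted 0.156; rho -0.810, exact p 0.0218), and -0.602 without the 2 farthest mice. Fgf10 had r = -0.826 with the luminal markers (exact permutation p 0.0110, adjusted 0.180; rho -0.810, exact p 0.0218), and -0.843 without the 2 farthest mice. These ligands were lower where luminal transcripts were higher. Fgfr1 had r = 0.803 with the basal epithelial markers (exact permutation p 0.0228, adjusted 0.243; rho 0.714, exact p 0.0576), and 0.794 without the 2 farthest mice. Fgfr3 had r = 0.795 with the basal markers (exact permutation p 0.0270, adjusted 0.258; rho 0.643, exact p 0.0962), and 0.796 without the 2 farthest mice. The basal markers had their highest sum in control 1 and their lowest in etanercept 50. Fgfr2 had r = -0.695 with the luminal markers (exact permutation p 0.0537, adjusted 0.433; rho -0.524, exact p 0.197), but -0.0244 without the 2 farthest mice, so that value rested on them. With the fibroblast markers, Fgf10 had r = 0.611 (exact permutation p 0.103, adjusted 0.581; rho 0.524, exact p 0.197), and 0.637 without the 2 farthest mice. Fgf1 had r = -0.288 with the fibroblast markers (exact permutation p 0.480, adjusted 0.870; rho -0.381, exact p 0.360), and -0.418 without the 2 farthest mice. Fgf1 was lower where leukocyte markers were higher (r = -0.711, exact permutation p 0.0232, adjusted 0.243; rho -0.548, exact p 0.171), and r was -0.427 without the 2 farthest mice. Fgf7 was lower where adipocyte markers were higher (r = -0.740, exact permutation p 0.0410, adjusted 0.359; rho -0.643, exact p 0.0962), with -0.248 within groups and -0.645 without the 2 farthest mice. The adipocyte markers summed to 4.15 to 99.4 CPM in the control mice and 0.698 to 7.96 CPM in the treated mice. Adipoq led them over all mice with 35.4%, but was at 0 CPM in etanercept 17 and 50. Of the adipocyte markers, 3 of 4 tested were lower at the unadjusted edgeR threshold, against 3.63% of all tested genes. Adipoq was not among the lower genes without control 69 and etanercept 17 (unadjusted edgeR p 0.0522), nor in every fit with 1 mouse left out (up to 0.141).

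The genes whose log2 CPM followed each member most closely over the 8 mice, among 15471 others, are given as a description. For Fgf7 they were Sema3c (r = 0.966, rho 0.929), Naa35 (r = 0.962, rho 0.881) and Gm49759 (r = 0.953, rho 0.929). For Fgf10 they were Adap2 (r = 0.974, rho 0.929), Fnip1 (r = 0.947, rho 0.952) and Tpm3 (r = 0.945, rho 0.905). Fgf1 was followed most closely by Lhfpl2 (r = 0.978, rho 0.952), Atrnl1 (r = 0.968, rho 0.952) and Tmem135 (r = 0.960, rho 1). Rbmxl1 was common to Fgf2 (r = 0.972, rho 0.881) and Fgfr2 (r = 0.983, rho 0.976). Also among the nearest genes were Itsn1 (r = 0.989, rho 0.976) for Fgf2 and Pbxip1 (r = 0.980, rho 1) for Fgfr2. Fgfr1 was nearest to Npr1 (r = 0.987, rho 0.952), Ccl20 (r = 0.977, rho 0.903) and Gnai2 (r = 0.964, rho 0.905). Fgfr3 was nearest to Ftl1 (r = 0.973, rho 0.929), Ier3 (r = 0.970, rho 0.905) and Rps2 (r = 0.967, rho 0.857).

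The rest of the pathway was counted in lists of genes by role, against a median log2 fold change of -0.0099 over all tested genes, of which 2.99% were higher and 3.63% lower at the unadjusted edgeR threshold and 2.41% had all treated mice above all control mice. The counts of 0 to 2 genes per list below cannot be set apart from these shares. Ranges in parentheses after a log2 fold change are its lowest and highest value with 1 mouse left out. Of 18 other FGF genes, 7 had 0 counts in all mice and 5 passed the filter on low counts, with 0 higher and 0 lower at the unadjusted edgeR threshold. Fgf14, which encodes an intracellular FGF that binds sodium channels, was at 0.388, 0.0318, 0.118 and 0 FPKM in control 1, 3, 65 and 69 and at 0.918, 0.4595, 0.428 and 0.546 FPKM in etanercept 17, 19, 50 and 52. Each treated mouse was above each control mouse at these low levels, and the log2 fold change of Fgf14 was 2.085 (SE 1.15, edgeR adjusted p 0.789), with 3.53 without control 1, 1.68 without control 69 and 1.37 without control 69 and etanercept 17. The most abundant of these genes in FPKM was Fgf13, another intracellular FGF, with means of 2.48 and 2.89 FPKM in control and treated mice. The control mean was raised by control 1, at 5.67 FPKM against 0.992 to 1.64 FPKM in the other control mice. The log2 fold change of Fgf13 was 0.22 (-0.0455 to 1.01, the latter without control 1). Fgf9 and Fgf11 had log2 fold changes of -0.53 (-0.838 to -0.264) and 0.32 (-0.402 to 0.581). The value of Fgf11 was -0.402 without etanercept 17 and -0.604 without control 69 and etanercept 17, so that its direction rested on etanercept 17.

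Receptors need heparan sulfate proteoglycans and other membrane partners to bind FGF. Of 19 such co-receptors and FGF-binding proteins, 15 were tested, with 0 higher, 0 lower and a median log2 fold change of 0.17. Sdc4, a syndecan that carries heparan sulfate, was the most abundant of them with 83.4 ± 13.3 FPKM in control and 64.3 ± 11.3 FPKM in treated mice (log2 fold change -0.38, edgeR adjusted p 0.772). The syndecan Sdc1 had a log2 fold change of -0.32 (-0.401 to -0.219) and the glypican Gpc6 one of 1.43 (1.06 to 1.80). Of 15 enzymes that make, trim or desulfate heparan sulfate, 12 were tested, 1 was higher, 0 were lower, and the median was 0.04. The higher gene was Glce, the epimerase that turns glucuronic into iduronic acid, at 2.90, 3.44, 4.05 and 3.83 FPKM in control 1, 3, 65 and 69 and 4.55, 4.87, 5.02 and 5.70 FPKM in etanercept 17, 19, 50 and 52. Each treated mouse was above each control mouse, and the log2 fold change of Glce was 0.50 (SE 0.17, edgeR adjusted p 0.739). Without etanercept 52 its unadjusted edgeR p was 0.0555, so that it was not among the higher genes there. The sulfatase Sulf2 had a log2 fold change of 0.47 (0.248 to 0.716), and the glycosyltransferase Extl3, the most abundant of these enzymes in FPKM, one of 0.06 (-0.0638 to 0.164). The heparanase Hpse had one of -0.86, which rested on a high value in control 3 and was 0.053 without that mouse.

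Downstream of the receptors, 21 of 21 genes of receptor-proximal and ERK signalling were tested, 2 were higher, 0 were lower, and the median log2 fold change was 0.09. Among the higher genes was the kinase Braf, at 2.24, 2.75, 2.69 and 3.855 FPKM in control 1, 3, 65 and 69 and at 5.28, 4.23, 3.64 and 4.42 FPKM in etanercept 17, 19, 50 and 52. Control 69 was within the range of the treated mice, and the log2 fold change of Braf was 0.61 (SE 0.20, edgeR adjusted p 0.739). The groups of the exchange factor Sos1 did not overlap, at a log2 fold change of 0.36 (0.296 to 0.416). The ERK kinase Mapk3 was the most abundant of these genes in FPKM, with means of 168 and 151 FPKM. Of 11 feedback inhibitors, 0 were higher, 0 were lower and the median was 0.07. Spred3, which inhibits RAF activation, had a log2 fold change of 1.17 (SE 0.56, edgeR adjusted p 0.754; 0.851 to 1.64) with groups that did not overlap. The ERK phosphatases Dusp5 and Dusp6 had -0.67 (-0.909 to -0.374, the latter without control 1) and -0.37 (-0.478 to -0.110, the latter without control 3), and Spry1, the most abundant in FPKM, had 0.26 (0.164 to 0.360). Of 8 genes known as targets of FGF and ERK signalling, 0 were higher and 1 was lower, and the median was -0.36. The lower gene was the early response factor Egr1, at 20.65, 17.4, 5.58 and 2.95 FPKM in control 1, 3, 65 and 69 and 4.56, 3.06, 4.06 and 5.75 FPKM in etanercept 17, 19, 50 and 52. Control 1 and 3 were high, control 69 was below each treated mouse, and the groups overlapped (log2 fold change -1.42, SE 0.54, edgeR adjusted p 0.739, exact permutation p 0.286). Egr1 was not among the lower genes with the animal number term (unadjusted edgeR p 0.0816), nor when control 1, control 3, etanercept 17, etanercept 19 or etanercept 50 was left out (up to 0.0861). Etv4, Ccnd1 and Phlda1 had log2 fold changes of -1.37 (-2.59 to -0.959), 0.53 (0.282 to 0.796) and -0.50 (-0.935 to -0.229). That of Etv4 was -2.59 without etanercept 52, and without control 69 and etanercept 17 those of Ccnd1 and Phlda1 were 0.147 and 0.0139, the latter with the sign reversed.

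**Figure D4:**
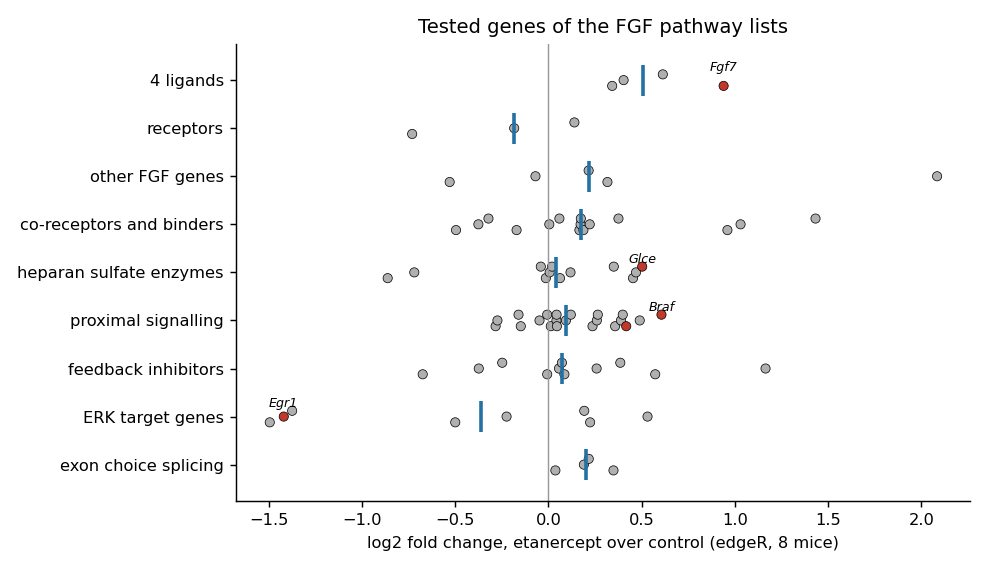
Log2 fold change from edgeR, etanercept-treated over control, of each tested gene in the lists of FGF ligands, receptors and pathway genes over 8 mice. Red points, among them the named Fgf7, Glce, Braf and Egr1, passed the unadjusted threshold of 0.05, grey points did not, and blue bars are list medians, 0.51 for the 4 ligands and -0.18 for the 3 tested receptors.

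The choice between the IIIb and IIIc exons of the receptors cannot be read from gene counts, since the count of a gene adds its forms together. Of 4 splicing genes known to act on this choice, 4 were tested, with 0 higher, 0 lower and a median log2 fold change of 0.20. Esrp1, which favours IIIb, had 16.5 ± 4.64 FPKM in control and 18.9 ± 4.66 FPKM in treated mice. Esrp2, which acts likewise, was at 3.78, 4.69, 5.35 and 11.5 FPKM in control 1, 3, 65 and 69 and at 1.78, 10.4, 10.2 and 7.045 FPKM in etanercept 17, 19, 50 and 52. Etanercept 17 was lowest and control 69 highest, the reverse of Fgfr2 in these mice. Over all mice the log2 fold change of Esrp2 was 0.22 (0.00413 to 0.679), and without control 69 and etanercept 17 it was 1.0 (edgeR adjusted p 0.162). Ptbp1, a repressor of exon inclusion and the most abundant of these genes in FPKM, had a log2 fold change of 0.35 (0.186 to 0.581). Without control 69 and etanercept 17, a set chosen after the data were seen, it was 0.62 for Ptbp1 and 0.52 for Esrp1. In that set 3 of the 4 genes were higher at the unadjusted edgeR threshold, where 8.2% of all tested genes were higher.

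The exon pair of Fgfr3 is shown because such exons decide which ligand a receptor binds. Its IIIb exon (chr5:33731281-33731431, plus strand, GRCm38) is 151 bases long and is in 4 of 13 coding transcripts of GENCODE M21, and its IIIc exon (chr5:33732117-33732261) is 145 bases long and is in 5 of 13. Their aligned sequences share 51.9% of bases, and capitals mark runs of at least 6 identical aligned bases.
Fgfr3 IIIb exon: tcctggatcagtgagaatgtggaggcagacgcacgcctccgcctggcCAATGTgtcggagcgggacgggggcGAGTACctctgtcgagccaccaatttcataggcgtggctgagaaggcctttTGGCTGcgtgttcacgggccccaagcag
Fgfr3 IIIc exon: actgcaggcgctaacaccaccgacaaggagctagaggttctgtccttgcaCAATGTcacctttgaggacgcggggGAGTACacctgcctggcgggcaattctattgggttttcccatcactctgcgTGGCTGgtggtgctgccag
Between receptors, the IIIb exons of Fgfr1 and Fgfr2 share 75.2% of bases, those of Fgfr2 and Fgfr3 58.0% and those of Fgfr1 and Fgfr3 55.1%. The IIIc exons of Fgfr1 and Fgfr3 share 77.4%.

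Promoter sequences of 6 of the 8 genes were in the RefSeq table for GRCm38.p6. That of Fgf7 is shown, as the gene whose groups did not overlap, for the 250 bases before its start (chr2:126034408-126034657, plus strand), with a GC content of 43.6%. Capitals mark an E-box, CANNTG on either strand.
Fgf7 promoter: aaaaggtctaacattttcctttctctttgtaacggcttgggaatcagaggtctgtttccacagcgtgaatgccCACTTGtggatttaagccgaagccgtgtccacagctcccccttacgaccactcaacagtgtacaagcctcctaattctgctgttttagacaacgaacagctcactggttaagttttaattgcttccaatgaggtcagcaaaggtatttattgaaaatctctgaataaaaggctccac
The E-box letters occur in 66.2% of the 32851 promoters of that length. The letters of the AP-1 motif (TGANTCA, 6.75% of promoters), the androgen receptor half-site (AGAACA, 16.1%), the TATA box (TATAAA, 12.4%), the GC box (GGGCGG, 32.7%), the CArG box (1.47%) and the NF-kB motif (7.25%) are not in this window of Fgf7 on either strand.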

How the data were processed

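Poly(A) RNA of 8 prostates, 4 control and 4 etanercept-treated, was sequenced. The authors mapped reads with STAR 2.6.1d to mm10 and deposited raw counts per gene from featureCounts 1.5.0-p3. The annotation they counted on is not given in the sources used here. Identifiers were matched to GENCODE M21 on GRCm38 (54495 of 54532 matched), whose union exon lengths gave FPKM. Total counts per mouse were 13760669 to 25178942, and floors of 3 counts cover counting error only.

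Groups were compared in edgeR 4.0.16 (R 4.3.3, limma 3.58.1) with TMM factors, the filterByExpr filter (minimum count 10) and quasi-likelihood tests, with Benjamini-Hochberg adjustment over 15472 genes and a threshold of 0.05. DESeq2 1.42.0 was an alternative. Single values were compared by exact two-sided permutation over the 70 assignments of the mice, with a smallest p of 0.0286. Correlations of log2(CPM + 1) used exact permutation of pairings, adjusted over 105 relations. Python 3.11.15, numpy 2.4.6, scipy 1.17.1 and pandas 2.3.3 were used. The pipeline was tested on simulated data. Alternatives were other normalization factors, filters, a robust fit, removal of a length trend, an animal number term, protein-coding genes only and each mouse left out.

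Exons were aligned with scores of 1 for a match, -1 for a mismatch and -2 for a gap. The members and lists were chosen with earlier results of these data known. The genes named are the members, the 3 genes of smallest p and the most abundant gene of each pathway list, the most abundant gene of each marker list, and the 3 genes most like each tested member, some of which are not reported here. Other genes named were chosen after their values were seen.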

Additional observations from a re-analysis of the deposited data

Results flagged for a closer look

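Of 154 sets of 4 mice examined, 20 held a mouse far from the other 3, where chance gives about 1 in 20 sets of independent, normal values. The sets here are not independent, since Fgfr4 and its share, and Svs2 and the seminal vesicle sum, repeat the same mice. CPM values are also skewed, so the count of 20 cannot be set against that rate. In each case the gap to the nearest mouse took more of the range of the set than the 95% critical value of Dixon's test allows.

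Among the members, Fgfr4 was at 0.133 CPM in control 3 and 0.346 CPM in etanercept 52, with 0 in the other mice, so that its share of the summed receptor FPKM was 0.314% and 1.06% there and 0 elsewhere. Fgf2 per 1000 summed CPM of fibroblast markers was 66.9 in etanercept 17 against 8.998 to 16.0 in the other treated mice, and per 1000 summed CPM of smooth muscle markers it was 3.39 against 0.808 to 1.19. Control 1, with the lowest smooth muscle sum, had 35.2 CPM of Fgf1 per 1000 of that sum against 8.51 to 11.75 in the other control mice, and 3.01 of Fgf7 against 1.55 to 1.76.

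In the pathway lists, Fgf13 was at 22.8 CPM in control 1 against 3.99 to 6.59 in its group, and at 15.8 CPM in etanercept 52 against 9.98 to 10.6. Hpse was at 18.7 CPM in control 3 against 3.18 to 4.74, and Dusp6 at 36.9 CPM in control 3 against 18.95 to 21.9. Extl3 was low in etanercept 17, at 60.7 CPM against 80.3 to 84.0.

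In the marker lists, Krt15 was at 103 CPM in etanercept 52 against 56.3 to 60.1, and Dcn at 647 CPM in control 3 against 278 to 299. Pecam1 was low in etanercept 19, at 16.3 CPM against 26.6 to 27.5. Svs2 was at 2369.8 CPM in control 69 against 0 to 12.45, and at 69634 CPM in etanercept 17 against 0.160 to 402. The seminal vesicle sum was 3560.2 CPM in control 69 against 0 to 19.5, and 87705 CPM in etanercept 17 against 4.11 to 601. The origin of these values was not tested.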

How the results depend on the processing

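The 7 tested members kept the sign of their log2 fold change under each alternative that used all 8 mice and no scale of marker CPM. These were DESeq2, RLE, upper-quartile and no factors, TMM without the 50 genes with most counts, both filters, the robust fit, the length trend, the animal number term, protein-coding genes only and the exact permutation test. The genes called after adjustment in edgeR were 0 throughout, including each fit without 1 mouse, while DESeq2 called 21.

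Without control 69 and etanercept 17, a set chosen after the data were seen, the log2 fold change was -0.56 for Fgf2 and -0.60 for Fgfr2, and 1275 genes were higher and 1292 lower at the unadjusted threshold, against 286 higher under library size alone. The co-receptor list then had 2 higher genes and the heparan sulfate enzymes 2 higher. Proximal signalling had 3 higher and 1 lower, feedback inhibitors 2 lower and exon choice splicing 3 higher of 4. Of all tested genes in that set, 8.2% were higher and 8.3% lower. On scales also chosen after the data were seen, the log2 difference per smooth muscle marker CPM was -0.52 for Fgf1, -0.69 for Fgf2 and -0.096 for Fgf10, and per fibroblast marker CPM -0.12 for Fgf2. The cause was not tested.

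DESeq2 and the permutation test each gave 1 higher gene among the other FGF genes and 1 among the feedback inhibitors, as did a filter of at least 10 counts for the feedback inhibitors. Under library size alone, 286 of all genes were higher at the unadjusted edgeR threshold. Co-receptors had 2 lower genes under library size alone and 1 without a filter. Proximal signalling had 1 higher gene with the length trend removed. The target genes had 0 lower with the animal number term and in the permutation test.

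Leaving out 1 mouse at a time gave log2 fold changes of -0.30 to 0.71 for Fgf2 and -0.37 to 0.33 for Fgfr2, with negative values without etanercept 17 for both and without control 69 for Fgfr2. It gave 263 to 870 higher and 398 to 956 lower genes, with most in both directions without control 69, fewest higher without etanercept 52 and fewest lower without control 65. The lists ranged over 0 to 1 higher and 0 to 1 lower genes for co-receptors, feedback inhibitors and targets, 0 to 1 higher for exon choice splicing, 0 to 2 higher for heparan sulfate enzymes and other FGF genes, and 1 to 3 higher with 0 to 1 lower for proximal signalling.

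Of 54 other named genes, 16 changed sign in some setting. Without control 69 and etanercept 17 the log2 fold change was -0.60 for Fgf11, 0.014 for Phlda1, 0.96 for Upk1a, -0.40 for Itsn1, -0.35 for Rbmxl1 and -0.28 for Pbxip1. With the length trend removed it was -0.020 for Extl3, -0.031 for Tmem135, -0.045 for Itsn1, 0.15 for Ccl20 and -0.018 for Pbxip1. Under library size alone it was -0.00859 for Extl3 and -0.069 for Pbxip1, and with the animal number term 0.018 for Dcn and 0.065 for Upk1a. With 1 mouse left out, values spanned 0 for Ccl20 (-1.58 to 0.40), Dcn (-0.18 to 0.38), Extl3 (-0.064 to 0.16), Fgf11 (-0.40 to 0.58), Fgf13 (-0.046 to 1.01), Hpse (-1.15 to 0.053), Itsn1 (-0.235 to 0.34), Mapk3 (-0.28 to 0.0044), Npr1 (-0.76 to 0.12), Pbxip1 (-0.19 to 0.099), Rbmxl1 (-0.18 to 0.26), Sbp (-0.0014 to 1.93), Svs2 (-2.14 to 12.1) and Upk1a (-0.56 to 0.59). The cause was not tested.

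Correlations passed in 0 of 105 cases after adjustment with all mice, within groups and without the 2 farthest mice. Fgfr4 was not tested under alternatives and was left out of the correlations. The comparison of protein sequences was not run, as no protein table was at hand. No paired analysis was possible because the groups share no animal numbers. With 4 mice per group and a biological coefficient of variation of 0.547, intervals are wide, so that genes that missed the threshold may still differ. Fgfr4 had 0 to 5 counts and Fgf14 0 to 66 counts per mouse. Gene counts do not resolve isoforms, cell types or protein.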

Other observations

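Among lists not described above, the skeletal muscle markers summed to 68.98 to 1768 CPM, led by Acta1 with 84.9%, the endothelial markers to 46.3 to 148 CPM, led by Pecam1 with 41.2%, and the leukocyte markers were led by Cd79a with 35.9%. The urothelial markers summed to 146 to 644 CPM, led over all mice by Upk1a with 80.7%, and the Schwann cell markers to 10.75 to 187 CPM. In etanercept 17, the mouse with the lowest urothelial sum, Upk1b was at 110.6 CPM and Upk1a at 29.65 CPM. Fgfr2 had a negative correlation with the secretory markers of the prostate (r = -0.568, exact permutation p 0.1495, rho -0.452, exact p 0.2675, 8 mice), and the value was -0.0568 without control 1 and etanercept 17.

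The IIIb and IIIc exons of Fgfr1 (chr8:25563374-25563524 and chr8:25564340-25564484, plus strand) share 53.8% of bases. In the RefSeq promoters, the GC box letters occurred 1 time for Fgf2 and Fgf10, 2 times for Fgfr4, 3 and 2 times in the windows of Fgfr3 and 0 times for Fgf7 and Fgfr2, and the NF-kB letters 2 times for Fgfr4 and 0 times for the other members in the table.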
